A study of Mus musculus with 11 samples.

Results

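The matrix metalloproteinases, the ADAMTS proteases and their inhibitors, the TIMPs, were examined in RNA-seq data of mouse mammary epithelial cells. Members were chosen by symbol alone, as every gene whose mouse symbol is *Mmp* with a number and an optional letter, *Adamts* with a number, or *Timp* with a number. This gave 46 of the 27179 genes in the deposited count tables, of which 23 were *Mmp*, 19 *Adamts* and 4 *Timp* genes. All 46 had at least 1 read in some library, and 34 passed the filter on low counts and were tested.

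The data comprised 11 libraries. MaSC/basal cells (CD24+CD29hi, enriched for mammary stem cells), luminal progenitor-enriched cells (LP, CD24+CD29loCD61+) and mature luminal-enriched cells (ML, CD24+CD29loCD61-) had been sorted from mammary glands of wild type virgin FVB/N females aged 8 weeks by the labels, after depletion of lineage-positive cells, with 3 libraries from independent samples for each population. The mammosphere library (wild type, FVB/N, virgin, 8 weeks) was made from MaSC/basal cells kept for 1 week in suspension with growth factors, and its submitted name may combine more than 1 culture. The Comma Dβ library was made from CommaD-βGeo, a Balb/c line derived from mid-pregnancy mammary gland, labelled wild type, which carries a β-geo reporter by its name. Strain, physiological state and culture therefore differ together between Comma Dβ and the sorted cells, and their effects cannot be told apart. By the labels, Comma Dβ also shared its batch with no MaSC/basal library. The mammosphere and Comma Dβ libraries are single samples and were not tested. MaSC/basal replicate 1 was submitted under a name that includes p53, but its genotype label is wild type and it was kept in its labelled group.

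These proteins act outside the cell. Matrix metalloproteinases are zinc-dependent enzymes, made as inactive precursors, that cleave collagens, gelatin, laminin and many surface proteins. ADAMTS enzymes are secreted relatives with thrombospondin repeats, which trim procollagens or cut proteoglycans such as versican and aggrecan. TIMPs bind and block the active site of metalloproteinases, and TIMP3 also inhibits several ADAM and ADAMTS enzymes and is held in the matrix. In the mammary gland this system is known for its part in ductal branching and in the remodelling that follows lactation.

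Libraries held 19958838 to 75795034 reads assigned to genes, so that 3 reads corresponded to 0.0399 to 0.160 CPM (read counts scaled to library size with TMM factors, the unit of all levels below unless stated). Batches, as the labels give them, held MaSC/basal, LP and ML replicate 1 with the mammosphere library (batch 1), MaSC/basal replicates 2 and 3 with LP and ML replicate 2 (batch 2), and LP and ML replicate 3 with Comma Dβ (batch 3). Summed levels of 6 basal markers (among them *Krt5*, *Krt14* and *Acta2*) ranged over 15520 to 21720 CPM for the MaSC/basal libraries, 88.9 to 210 CPM for LP and 70.3 to 358 CPM for ML, and those of 4 luminal markers were 1318 to 1606, 10640 to 12050 and 10030 to 11820 CPM. These sums set MaSC/basal apart from luminal cells and overlapped between LP and ML cells. Sums of 4 LP markers were 1224 to 1614 CPM in LP and 295 to 688 CPM in ML libraries. Those of 4 mature luminal markers were 641.5 to 1562 CPM in LP and 3542 to 5948 CPM in ML libraries. The labels of the 3 sorted populations thus followed their markers. In ML replicate 3, *Krt5*, *Krt14* and *Trp63* were at 141, 110 and 24.8 CPM. In the other luminal libraries they were at most 22.3, 27.6 and 4.27 CPM. In the mammosphere library the basal and luminal sums were 3460 and 2833 CPM, and in Comma Dβ 1513 and 205.5 CPM. In bulk RNA, fewer cells of a type and less RNA per cell cannot be told apart.

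Most members were expressed somewhere, and the sorted populations differed more in which member was high than in how many were present. A mean over 0.5 CPM was reached by 29 members in MaSC/basal cells, 29 in LP cells, 30 in ML cells, 37 in the mammosphere library and 32 in Comma Dβ. The counts of the cultures rest on 1 library each. How many of all genes passed this level in each sample type was not counted, so the counts are not particular to these members. The 6 members under 0.5 CPM in every sample type were *Adamts19*, *Mmp1a*, *Mmp7*, *Mmp20*, *Mmp21* and *Timp4*, with highest means between 0.0196 and 0.403 CPM. Per kilobase of exon, *Adamts1* was the most abundant member in MaSC/basal cells (241.7 TMM CPM per kb), followed by *Mmp2* (143), *Timp3* (130), *Timp2* (103) and *Mmp14* (96.9). In LP cells *Timp2* (95.9), *Mmp15* (66.5) and *Mmp14* (42.4) led, and in ML cells *Mmp14* (121), *Mmp15* (88.4) and *Timp2* (72.7). On the same scale the order of the mammosphere library began with *Timp1* (296), *Mmp14* (121) and *Mmp3* (119), and in Comma Dβ with *Timp1* (243), *Timp2* (208) and *Timp3* (162).

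**Figure D1:**
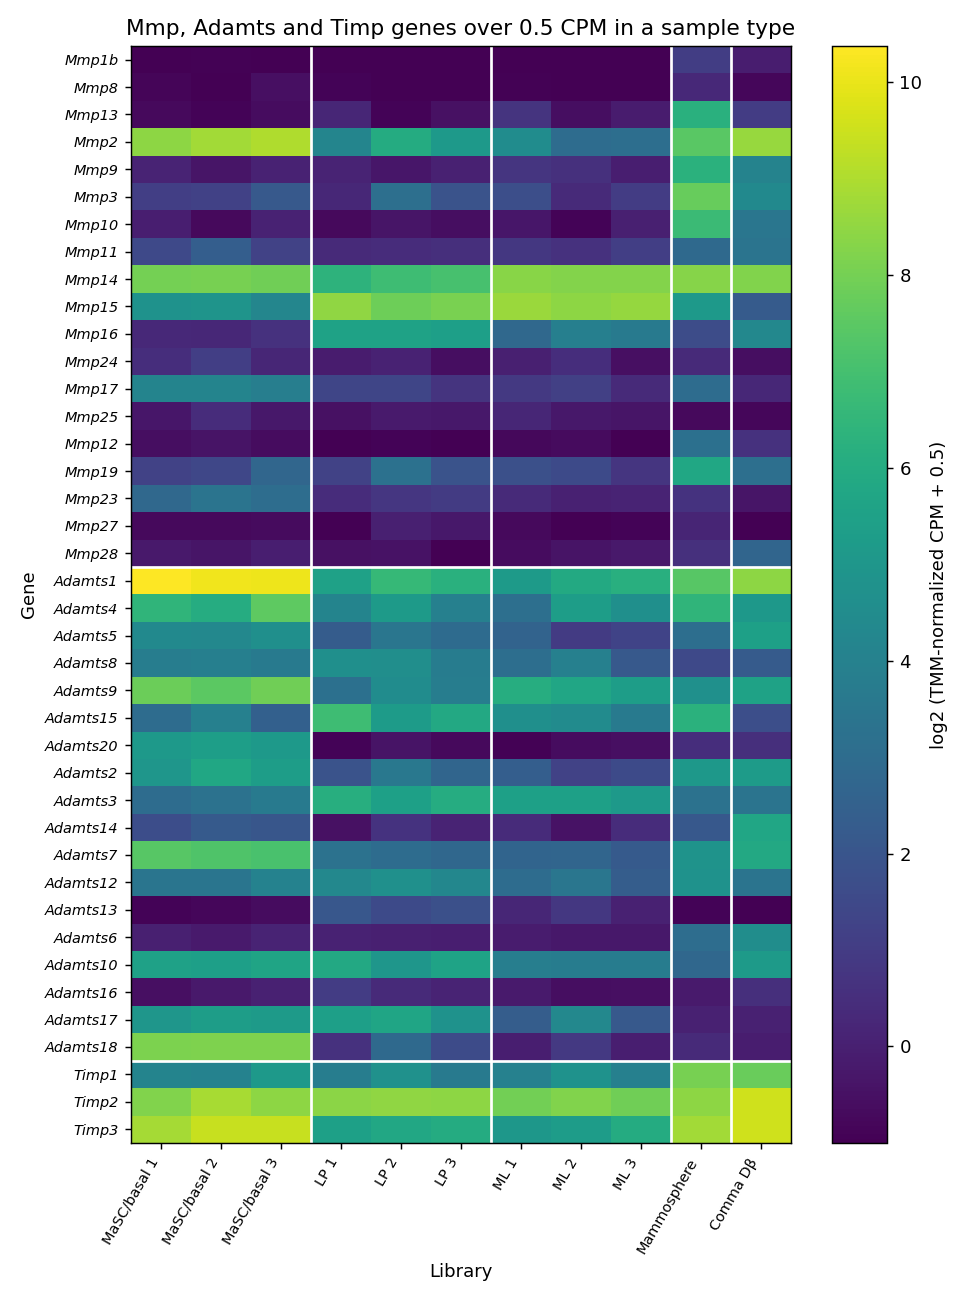
Level of the 40 members with a mean over 0.5 CPM in at least 1 sample type, as log2 of TMM-normalized CPM plus 0.5 (colour), with genes in rows grouped as *Mmp*, *Adamts* and *Timp* and the 11 libraries in columns. *Adamts1*, *Adamts18*, *Mmp2* and *Timp3* are bright in the 3 MaSC/basal columns, *Mmp15* and *Adamts3* in the 6 luminal columns, and *Mmp3*, *Mmp9*, *Mmp10* and *Mmp13* in the mammosphere column.

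Summed per family on the per-kilobase scale, *Adamts* transcripts stood at 413 to 462 in MaSC/basal libraries, 68.2 to 81.2 in LP libraries and 42.1 to 55.9 in ML libraries. The 3 populations did not overlap. *Mmp* transcripts gave sums of 231 to 282 in MaSC/basal libraries, 134 to 140.1 in those of LP and 208 to 236 in those of ML cells, so that LP libraries were lowest and the other two populations overlapped. *Timp* transcripts gave sums of 201 to 295 in MaSC/basal libraries, 119 to 141 in those of LP and 93.1 to 121 in those of ML cells. The mammosphere sums were 101 for *Adamts*, 448 for *Mmp* and 486 for *Timp*, and in Comma Dβ 142, 285 and 613, so that both cultured libraries lay above every sorted library for *Timp* and between the MaSC/basal and luminal libraries for *Adamts*.

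The sorted populations were compared in pairs, to ask which members distinguish the basal from the luminal lineage and luminal progenitors from mature luminal cells. The counts were fitted with edgeR's quasi-likelihood test over 15422 genes, and calls were made at a Benjamini-Hochberg FDR under 0.05. The comparisons share libraries and are not independent of each other. Of the 34 members tested, 15 were higher in MaSC/basal than in LP cells (44.1%, against 29.4% of all genes tested) and 7 were higher in LP cells (20.6%, against 28%). Against ML cells, 17 members were higher in MaSC/basal cells (50%, against 28.9%) and 5 in ML cells (14.7%, against 29.7%). Between the luminal populations, 11 members were higher in LP cells (32.4%, against 14.3%) and 2 in ML cells (5.88%, against 17.5%). Median log2 fold changes over the tested members were 0.63, 0.84 and 0.54 in the 3 comparisons, and over all genes tested -0.01, -0.01 and -0.01. Among the sorted libraries, those over 0.5 CPM for *Adamts20* were all of MaSC/basal cells.

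By family, 9 of 18 tested *Adamts* genes were higher in MaSC/basal than in LP cells, 5 were higher in LP cells and 4 did not pass the test. Of 13 *Mmp* genes, 5 were higher in MaSC/basal cells, 2 in LP cells and 6 did not pass. The shares of all genes tested were 29.4% and 28%, and 5 of 18 is close to the latter. Against ML cells, 11 *Adamts* genes were higher in MaSC/basal cells and 2 in ML cells, and for *Mmp* genes the counts were 4 and 3. Here the shares of all genes were 28.9% and 29.7%. With so few genes, 4 and 3 of 13 are close to these. Of the 3 *Timp* genes tested, 1 was higher in MaSC/basal than in LP cells and 2 were higher than in ML cells. Between LP and ML cells, 8 *Adamts* genes were higher in LP cells and 1 in ML cells. There, 3 *Mmp* genes were higher in LP cells and 1 in ML cells, and no *Timp* gene was called. Over all genes tested, 14.3% were higher in LP and 17.5% in ML cells. The number of members higher in LP than in ML cells was the least stable of these counts and fell from 11 to 5 without ML replicate 3. Without MaSC/basal replicate 1, the library with the unclear name, the counts were 15 and 5 against LP cells, 17 and 4 against ML cells, and 8 and 2 for the luminal pair. For fits without a library the share of all genes was not counted, so these changes cannot be read as particular to the members.

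RNA of other cell types was also measured in these libraries. Over 10 fibroblast markers, none at 0 in any library, summed levels were 626 to 992 CPM in MaSC/basal cells, 446, 1755 and 943 CPM in LP replicates 1 to 3 and 1425, 767 and 1043 CPM in ML replicates 1 to 3. Most of the ML sums came from *Dcn* (352.5, 285 and 450 CPM) and *Col6a3* (468, 352 and 449 CPM). *Col1a1*, which encodes a chain of type I collagen, was at 87.4, 123 and 144 CPM in MaSC/basal, 45.1, 235 and 95.9 CPM in LP and 124, 29.2 and 29.1 CPM in ML libraries. LP replicate 2 and ML replicate 1 were the highest of their populations for *Col1a1*, and also for *Mmp2*, *Mmp3*, *Mmp19*, *Adamts2* and *Adamts5*, genes singled out after their values had been seen. Over 5 pericyte markers, none at 0, the sums were 33.4 to 49.0 CPM in MaSC/basal, 3.95 to 14.2 CPM in LP and 5.93 to 12.4 CPM in ML libraries. Over 6 endothelial markers, the sums were 64.0 to 136, 20.8 to 56.4 and 101 to 139 CPM. In ML cells 91.0 to 107 CPM of the endothelial sum came from *Vwf*, whereas *Cdh5* was at 1.24 to 9.48 CPM there and at 11 to 24.6 CPM in MaSC/basal libraries. The part of these cells in the results was not tested. Without LP replicate 2, 15 members were higher in MaSC/basal and 6 in LP cells, and without ML replicate 1, 16 were higher in MaSC/basal and 4 in ML cells. The share of all genes was not counted in these fits, so the counts do not show an effect of other cells on the members.

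Secreted collagenases and stromelysins cut fibrillar collagen and a wide range of matrix proteins, and some activate other metalloproteinases. Of these, *Mmp3*, *Mmp10* and *Mmp13* were scarce in the sorted cells and abundant in the mammosphere library. *Mmp3* (stromelysin) was at 1.66, 1.81 and 4.05 CPM in MaSC/basal, 0.705, 8.41 and 3.31 CPM in LP and 2.80, 0.797 and 1.5 CPM in ML libraries, with 214 CPM in the mammosphere library and 20.8 CPM in Comma Dβ. The sorted populations overlapped, and both cultures lay above all 9 sorted libraries. *Mmp10*, the other stromelysin of the pair, was at 0.458, 0.120 and 0.565 CPM in MaSC/basal, 0.106, 0.281 and 0.160 CPM in LP and 0.311, 0.0399 and 0.501 CPM in ML libraries, against 108 CPM in the mammosphere library and 10.5 CPM in Comma Dβ. The collagenase *Mmp13* was at 0.102, 0.0399 and 0.151 CPM in MaSC/basal, 0.670, 0.0374 and 0.214 CPM in LP and 1.16, 0.173 and 0.410 CPM in ML libraries, against 73.6 CPM in the mammosphere library and 1.53 CPM in Comma Dβ. In the mammosphere library *Mmp13* thus stood far above all sorted libraries, whereas in Comma Dβ it was near the highest ML library. *Mmp13* passed the test between MaSC/basal and ML cells (log2 fold change -2.46, SE 0.95, edgeR adjusted p = 0.0468), on at most 41 reads in a library. This call was lost with limma voom (adjusted p = 0.104), and also without any 1 of the MaSC/basal replicates, LP replicate 3, ML replicate 1 or ML replicate 3 (adjusted p of 0.0583 to 0.277, log2 fold change of -1.33 without ML replicate 1).

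These 3 genes lie in the *Mmp* cluster of chromosome 9, which holds 10 members within 427 kb (GRCm38, chr9:7272514-7699585). Besides them, *Mmp12* (macrophage metalloelastase) had 384 reads in the mammosphere library and 30 in Comma Dβ, against 0 to 13 reads in each sorted library. *Mmp1b*, a rodent collagenase gene, had 70 and 13 reads, against 1 read over all sorted libraries. *Mmp8* (neutrophil collagenase) and *Mmp27* reached 0.744 and 0.631 CPM in the mammosphere library, and their means in Comma Dβ and the sorted populations were at most 0.269 CPM. *Mmp7* (matrilysin) was at 0.338 and 0.204 CPM in the cultures and at most 0.0942 CPM in a sorted library, *Mmp1a* had 11 and 1 reads in the cultures, and *Mmp20* (enamelysin) had no read in either. Except for *Mmp20*, every gene of the cluster was therefore higher in the mammosphere library than in each sorted library. *Mmp1a* and *Mmp1b*, and *Mmp3* and *Mmp10*, are close in sequence, so reads may have been split or lost between them, and exons of *Mmp12* and *Mmp1b* overlap by 157 bases on opposite strands, which unstranded counts cannot separate.

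**Figure D2:**
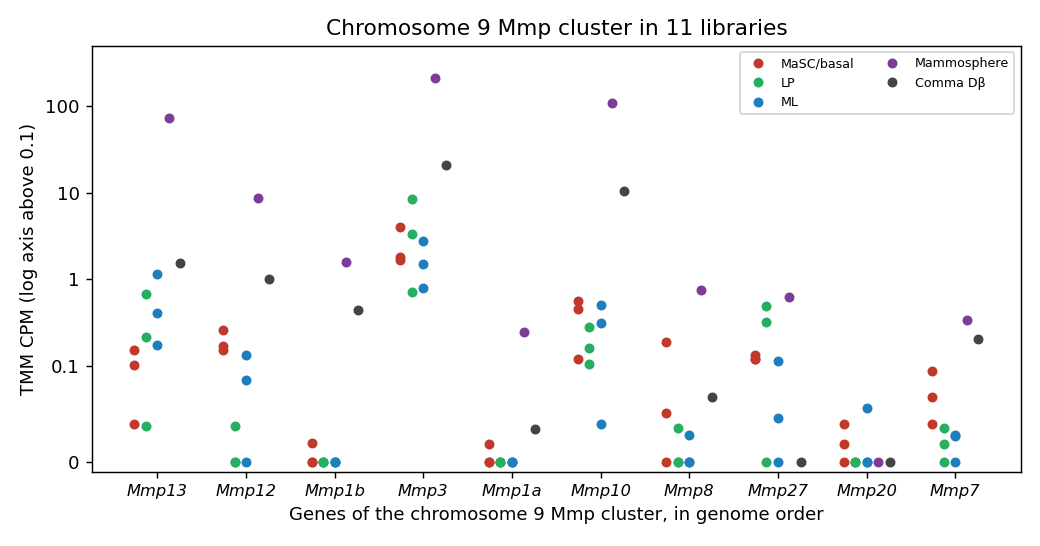
Level of the 10 genes of the chromosome 9 *Mmp* cluster, in genome order (horizontal axis), in TMM-normalized CPM (vertical axis, logarithmic above 0.1), with 1 point per library coloured by sample type. The mammosphere library reaches 214 CPM for *Mmp3*, 108 CPM for *Mmp10* and 73.6 CPM for *Mmp13*, above all sorted libraries, and it lies above Comma Dβ for every gene with reads in it.

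The promoters of *Mmp3*, *Mmp10* and *Mmp13* are shown because these are the 3 genes of the cluster that passed the filter. *Mmp10* and *Mmp13* passed it only with the cultured libraries counted, so this choice depended on their levels in culture. The promoter of *Timp1* is shown for comparison, since its transcript was also higher in both cultures. The sequences are RefSeq's (GRCm38.p6), 250 bases before to 50 bases after the gene start, with capitals marking TGANTCA, the letters of the AP-1 element, a site known from stromelysin and collagenase promoters. The windows are chr9:7445572-7445871 for *Mmp3*, chr9:7502092-7502391 for *Mmp10*, chr9:7272264-7272563 for *Mmp13* and chrX:20869916-20870215 for *Timp1*, all on the plus strand.
Mmp3: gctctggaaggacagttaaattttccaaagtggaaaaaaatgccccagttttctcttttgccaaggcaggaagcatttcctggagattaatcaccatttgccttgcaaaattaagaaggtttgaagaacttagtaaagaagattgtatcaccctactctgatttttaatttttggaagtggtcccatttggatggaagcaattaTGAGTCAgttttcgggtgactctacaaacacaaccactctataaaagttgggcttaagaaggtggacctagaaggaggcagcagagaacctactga
Mmp10: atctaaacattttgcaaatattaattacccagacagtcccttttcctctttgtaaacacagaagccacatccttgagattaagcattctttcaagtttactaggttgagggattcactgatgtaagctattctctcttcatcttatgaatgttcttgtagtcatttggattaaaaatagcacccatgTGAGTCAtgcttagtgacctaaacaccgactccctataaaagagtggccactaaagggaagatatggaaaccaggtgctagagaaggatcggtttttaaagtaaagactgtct
Mmp13: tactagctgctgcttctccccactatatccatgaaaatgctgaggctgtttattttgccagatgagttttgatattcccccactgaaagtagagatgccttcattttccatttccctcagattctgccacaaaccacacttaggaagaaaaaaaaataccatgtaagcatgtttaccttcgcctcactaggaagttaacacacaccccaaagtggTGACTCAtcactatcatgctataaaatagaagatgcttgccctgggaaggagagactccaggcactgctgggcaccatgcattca
Timp1: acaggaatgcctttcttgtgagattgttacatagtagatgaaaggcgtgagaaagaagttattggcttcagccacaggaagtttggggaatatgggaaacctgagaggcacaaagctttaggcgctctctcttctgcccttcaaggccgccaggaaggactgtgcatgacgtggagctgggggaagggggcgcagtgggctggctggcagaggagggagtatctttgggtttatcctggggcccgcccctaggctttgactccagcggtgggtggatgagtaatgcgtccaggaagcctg
The letters TGAGTCA stood 46 to 40 bases before the start of *Mmp3* and 63 to 57 bases before that of *Mmp10*, TGACTCA stood 35 to 29 bases before that of *Mmp13*, and the window of *Timp1* held no match. On either strand, TGANTCA occurred in 2565 of 32851 promoter windows of the table (7.81%). It occurred in 8 of 12 windows of the chromosome 9 cluster (8 of its 10 genes) and in 0 of 23 windows of other members, where 32 members had a window. Members without a window included *Mmp9*, *Mmp16*, *Mmp19*, *Adamts6* and *Adamts15*, which were higher in the mammosphere library than in MaSC/basal cells. The other members are thus covered in part only. Near matches, such as tgagtaa in the window of *Timp1*, were not counted. *Mmp8* and *Mmp27* were the cluster genes without a match, and *Mmp20*, which had one, had no read in the cultures. A match is a description of the letters and not a site or a cause.

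Among the gelatinases, which degrade denatured collagen and basement membrane collagen, *Mmp2* separated the sorted lineages and *Mmp9* separated the cultures from the sorted cells. *Mmp2* (chr8:92827290-92853421) was at 348, 440.0 and 514 CPM in MaSC/basal, 17.4, 63.2 and 34.1 CPM in LP and 22.7, 7.59 and 8.16 CPM in ML libraries, with 175 CPM in the mammosphere library and 397 CPM in Comma Dβ. Every MaSC/basal library and both cultures lay above all luminal libraries, while LP and ML cells overlapped. The log2 fold change was 3.50 (SE 0.54, edgeR adjusted p = 0.000319) against LP and 5.08 (SE 0.58, adjusted p = 3.87e-05) against ML cells. Between LP and ML cells it was 1.58 (SE 0.51, adjusted p = 0.038), and this call did not pass with batch as a block (log2 fold change 1.56, adjusted p = 0.0613) nor without any 1 of 7 libraries, with 1.03 (adjusted p = 0.151) without LP replicate 2, the sorted library with the highest *Col1a1*. *Mmp9* was at 0.611, 0.279 and 0.565 CPM in MaSC/basal, 0.600, 0.318 and 0.534 CPM in LP and 1.19, 1.01 and 0.456 CPM in ML libraries, and at 77.3 CPM in the mammosphere library and 16.5 CPM in Comma Dβ. It was low in all sorted cells, which overlapped, and high in both cultures. *Mmp2* and *Mmp9* thus differed in the cultures as well, since *Mmp2* did not exceed its MaSC/basal range in either.

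The membrane-type enzymes, which sit on the cell surface and among which MMP14 is known to activate pro-MMP2, divided the 3 populations. *Mmp14* (chr14:54431598-54442456) was at 251, 263 and 240.1 CPM in MaSC/basal, 80.9, 115 and 135 CPM in LP and 331, 304 and 309 CPM in ML libraries, with 315 CPM in the mammosphere library and 299 CPM in Comma Dβ. The populations did not overlap, with ML cells highest and LP cells lowest. *Mmp14* was higher in MaSC/basal than in LP cells (log2 fold change 1.19, SE 0.18, edgeR adjusted p = 0.000273) and lower in LP than in ML cells (-1.51, SE 0.18, adjusted p = 0.000827), and the difference between MaSC/basal and ML cells did not pass (-0.32, SE 0.18, adjusted p = 0.141).

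*Mmp15* and *Mmp16*, its relatives with a transmembrane anchor, were luminal. *Mmp15* (chr8:95352296-95374293) was at 27, 29.5 and 18.2 CPM in MaSC/basal, 356, 229.6 and 268 CPM in LP and 403, 349 and 383 CPM in ML libraries, and 4.36 CPM in Comma Dβ, with 34.6 CPM in the mammosphere library. All 6 luminal libraries were above the MaSC/basal libraries and the cultures, with log2 fold changes of -3.51 (SE 0.23, edgeR adjusted p = 1.26e-06) for MaSC/basal against LP and -3.92 (SE 0.24, adjusted p = 6.26e-07) against ML cells. *Mmp16* (chr4:17853072-18117479) was at 0.730, 0.718 and 1.04 CPM in MaSC/basal, 46.6, 46.5 and 42.1 CPM in LP and 6.68, 14.6 and 12.1 CPM in ML libraries, with 2.59 CPM in the mammosphere library and 19.3 CPM in Comma Dβ. The 3 populations did not overlap, in the order LP, ML and MaSC/basal, with log2 fold changes of -5.76 (SE 0.32, adjusted p = 5.68e-07) for MaSC/basal against LP and 2.02 (SE 0.27, adjusted p = 0.00103) for LP against ML cells. *Mmp15* and *Mmp16* therefore shared a low level in MaSC/basal cells, and *Mmp16* alone of the pair was called between LP and ML cells (*Mmp15* -0.41, SE 0.21, adjusted p = 0.161). *Mmp17*, anchored through a lipid, had the opposite place, with 17.0, 17.3 and 13.9 CPM in MaSC/basal, 2.12, 2.12 and 1.12 CPM in LP and 1.36, 1.74 and 0.775 CPM in ML libraries, 7.73 CPM in the mammosphere library and 0.715 CPM in Comma Dβ. MaSC/basal libraries lay above the luminal libraries (log2 fold change 3.14, SE 0.33, adjusted p = 2.32e-05 against LP). The remaining membrane-type members, *Mmp24* and *Mmp25*, had no mean above 1.07 CPM in any sample type.

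Of the other *Mmp* genes, *Mmp23* was highest in MaSC/basal cells, with 6.74, 9.93 and 7.78 CPM, against 0.846, 1.24 and 1.44 CPM in LP and 0.764, 0.532 and 0.592 CPM in ML libraries, and with 1.08 and 0.272 CPM in the mammosphere and Comma Dβ libraries. MaSC/basal libraries stood apart from all others (log2 fold change against LP 2.80, SE 0.29, edgeR adjusted p = 2.21e-05). The smaller difference between LP and ML cells (0.90, SE 0.30, adjusted p = 0.0455) did not pass with batch as a block (0.87, adjusted p = 0.0557) nor under 11 other alternatives. *Mmp11* (stromelysin-3 by its usual name) was at 2.34, 4.70 and 1.90 CPM in MaSC/basal, 0.776, 0.842 and 0.961 CPM in LP, 1.27, 1.04 and 1.69 CPM in ML, 6.83 CPM in mammosphere and 9.91 CPM in Comma Dβ libraries. It was higher in MaSC/basal than in LP cells (log2 fold change 1.8, SE 0.38, adjusted p = 0.00227), and its call against ML cells (1.18, adjusted p = 0.0166) was lost without MaSC/basal replicate 2 (0.72, adjusted p = 0.0593) and without ML replicate 2 (1.01, adjusted p = 0.0618). *Mmp19* was at 1.90, 2.19 and 6.16 CPM in MaSC/basal, 1.87, 9.00 and 3.20 CPM in LP and 2.94, 2.42 and 1.18 CPM in ML libraries, which overlapped, and at 55.2 CPM in the mammosphere and 8.34 CPM in the Comma Dβ library. Its exons share 789 bases with *Tmem198b* on the opposite strand. *Mmp28* (epilysin) was at most 0.471 CPM in a sorted library and stood at 0.992 and 6.13 CPM in the cultures.

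*Adamts* genes gave the largest differences between MaSC/basal and luminal cells. *Adamts1* (chr16:85793827-85803113), a protease that cuts versican and aggrecan, was at 1328, 1114 and 1101 CPM in MaSC/basal, 45.4, 98.4 and 75.1 CPM in LP and 36.7, 58.9 and 72.6 CPM in ML libraries, with 173 CPM in the mammosphere library and 344 CPM in Comma Dβ. MaSC/basal libraries were above all others, the cultures were in between, and LP and ML cells overlapped. The mean of 1181 ± 127 CPM (SD, n = 3) in MaSC/basal cells compared with 73.0 ± 26.5 CPM for LP and 56.1 ± 18.1 CPM for ML cells, with log2 fold changes of 4.02 (SE 0.34, edgeR adjusted p = 5.81e-06) and 4.40 (SE 0.34, adjusted p = 3.09e-06).

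*Adamts18* (chr8:113697123-113849343) and *Adamts20* (chr15:94268314-94432074) were close to specific to freshly sorted MaSC/basal cells among these sample types. *Adamts18* was at 278, 286 and 288 CPM in MaSC/basal, 1.06, 6.81 and 2.56 CPM in LP and 0.481, 1.33 and 0.456 CPM in ML libraries, and at 0.789 CPM in the mammosphere and 0.443 CPM in the Comma Dβ library. The log2 fold change was 6.28 (SE 0.62, edgeR adjusted p = 1.61e-05) against LP and 8.39 (SE 0.70, adjusted p = 4.61e-06) against ML cells. Its difference between LP and ML cells (2.10, SE 0.60, adjusted p = 0.0244) rested on few reads and was lost with limma voom (1.97, adjusted p = 0.0564), without LP replicate 2 (1.06, adjusted p = 0.149) and without ML replicate 1 or 3 (adjusted p = 0.0842 and 0.0653). *Adamts20*, a relative of *Adamts9* that cuts versican, was at 35.4, 41.1 and 35.4 CPM in MaSC/basal libraries, where it had 1877 to 2085 reads, against 1, 14 and 2 reads in LP and 1, 11 and 4 reads in ML libraries. In the mammosphere and Comma Dβ libraries it had 40 and 28 reads (0.902 and 0.953 CPM). MaSC/basal libraries did not overlap with any other (log2 fold change 7.84, SE 0.47, adjusted p = 8.09e-07 against LP, and 8.26, SE 0.48, adjusted p = 5.43e-07 against ML cells), and its fitted fold changes depend on the few luminal reads.

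**Figure D3:**
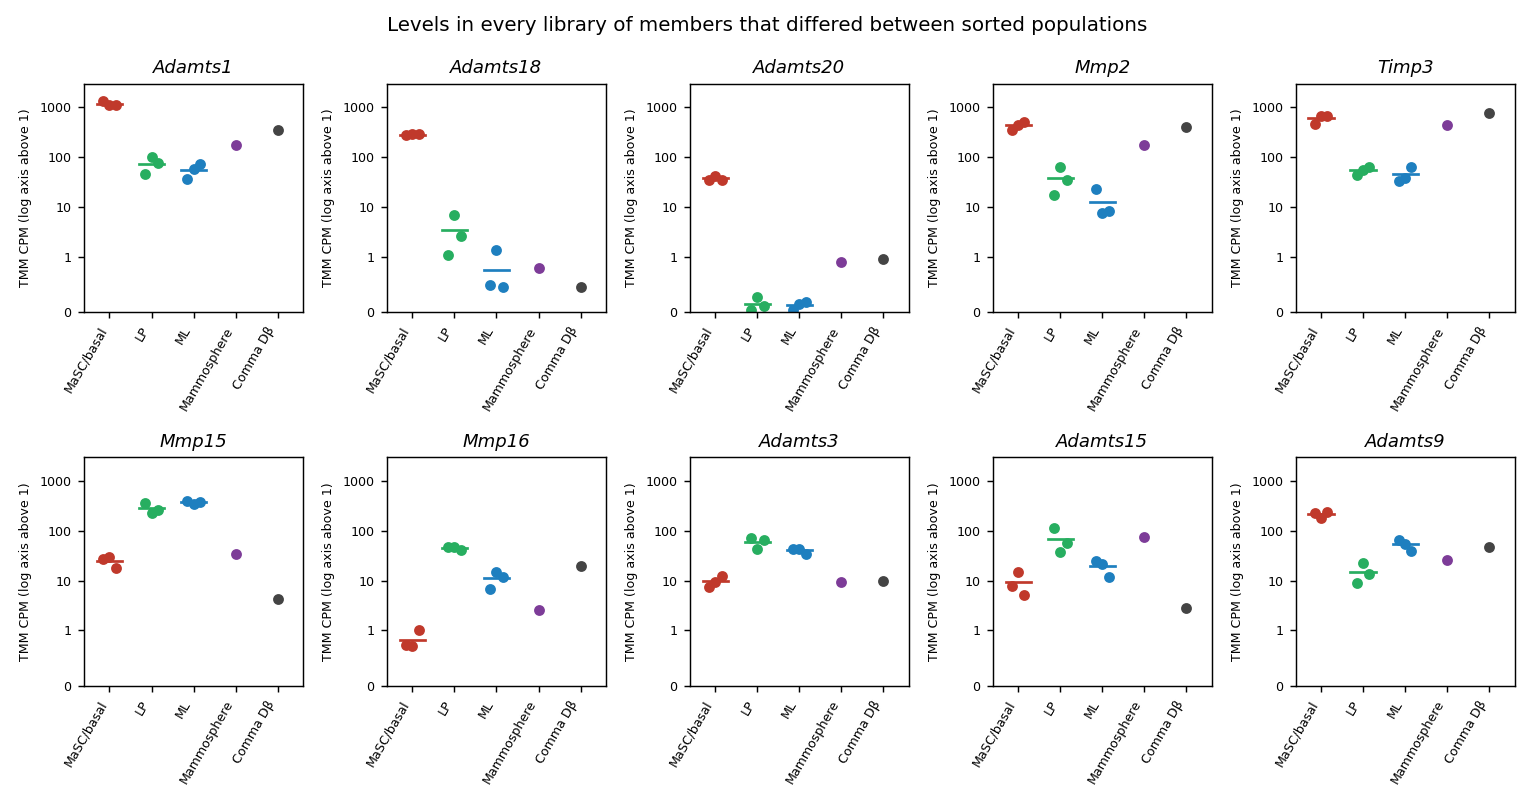
Level of 10 members in every library, in TMM-normalized CPM (vertical axis, logarithmic above 1), with 1 point per library and a line at the mean of the 3 libraries of a sorted population. *Adamts1*, *Adamts18*, *Adamts20*, *Mmp2* and *Timp3* are highest among sorted cells in MaSC/basal libraries, *Mmp15*, *Mmp16*, *Adamts3* and *Adamts15* in luminal libraries, and *Adamts9* is lowest in LP libraries.

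The other proteoglycan-cutting members were also mostly basal. *Adamts9* (chr6:92772699-92944450) was at 227, 183 and 240.2 CPM in MaSC/basal, 8.82, 22.7 and 13.8 CPM in LP and 66.6, 53.3 and 39.6 CPM in ML libraries, with 25.8 CPM in the mammosphere and 47.1 CPM in the Comma Dβ library. The 3 populations did not overlap, and *Adamts9* and *Mmp14* were the 2 members higher in ML than in LP cells (*Adamts9* log2 fold change -1.81, SE 0.32, edgeR adjusted p = 0.00292). Against MaSC/basal cells *Adamts9* differed by 3.84 (SE 0.34, adjusted p = 7.95e-06) in LP and 2.03 (SE 0.31, adjusted p = 0.000311) in ML cells. Its exons share 1381 and 424 bases with the opposite-strand transcripts *A730049H05Rik* and *Gm15737*, whose reads cannot be separated from it in unstranded counts. *Adamts4*, an aggrecanase, was at 87.0, 66.3 and 189 CPM in MaSC/basal, 16.9, 36.7 and 15.2 CPM in LP and 8.29, 39.9 and 24.5 CPM in ML libraries, with 85.2 CPM in the mammosphere and 33.0 CPM in the Comma Dβ library. MaSC/basal replicate 3 was the highest, and all MaSC/basal libraries lay above the luminal libraries (2.31, SE 0.59, adjusted p = 0.0072 against LP, and 2.23, SE 0.59, adjusted p = 0.00807 against ML cells). *Adamts5*, the other main aggrecanase, was at 20.6, 19.1 and 25.1 CPM in MaSC/basal, 4.41, 10.5 and 7.42 CPM in LP and 5.60, 1.48 and 1.96 CPM in ML libraries, with 8.10 CPM in the mammosphere and 43.3 CPM in the Comma Dβ library. It was higher in MaSC/basal than in ML cells (2.85, SE 0.49, adjusted p = 0.000608), and its call against LP cells (1.53, SE 0.46, adjusted p = 0.0166) was lost without MaSC/basal replicate 3 (1.42, adjusted p = 0.0501) and without LP replicate 1 (1.24, adjusted p = 0.059).

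*Adamts15* and *Adamts8*, of the same group, were not basal. *Adamts15* (chr9:30899155-30922452) was at 7.62, 15.1 and 5.18 CPM in MaSC/basal, 113, 37.9 and 57.0 CPM in LP and 25.1, 21.9 and 12.0 CPM in ML libraries, with 76.1 CPM in the mammosphere and 2.83 CPM in the Comma Dβ library. LP libraries were above all other sorted libraries, MaSC/basal and ML libraries overlapped, and the cultures stood on opposite sides. *Adamts15* was lower in MaSC/basal than in LP cells (log2 fold change -2.9, SE 0.50, edgeR adjusted p = 0.000685), and against ML cells the difference did not pass (-1.09, SE 0.48, adjusted p = 0.0733), although it did with the Wald test of DESeq2 (adjusted p = 0.0365) and without MaSC/basal replicate 2 (-1.60, adjusted p = 0.0223), LP replicate 1 (-1.08, adjusted p = 0.0454) or ML replicate 3 (-1.34, adjusted p = 0.0417). The call for LP over ML cells (1.81, SE 0.48, adjusted p = 0.0181) was lost without LP replicate 1 (1.29, adjusted p = 0.0654) and without ML replicate 3 (1.56, adjusted p = 0.0573). *Adamts8* was at 13.6, 14.6 and 12.1 CPM in MaSC/basal, 24.5, 24.1 and 13 CPM in LP, 8.06, 14.8 and 4.01 CPM in ML, 2.39 CPM in mammosphere and 4.26 CPM in Comma Dβ libraries. The sorted populations overlapped, and its call for LP over ML cells (1.18, SE 0.41, adjusted p = 0.0496) was lost under 10 alternatives, with values from 0.84 without ML replicate 3 to 1.20 without MaSC/basal replicate 2.

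The procollagen N-proteinases, which remove the amino-terminal propeptide of fibrillar procollagens, were split between the lineages. *Adamts2* was at 31.2, 54.9 and 40.2 CPM in MaSC/basal, 3.32, 11.4 and 6.09 CPM in LP and 4.70, 1.89 and 2.46 CPM in ML libraries, with 32.8 CPM in the mammosphere and 36.8 CPM in the Comma Dβ library. *Adamts14* was also highest in MaSC/basal among sorted cells, with 2.77, 4.21 and 3.62 CPM in MaSC/basal, 0.212, 1.10 and 0.587 CPM in LP and 0.820, 0.239 and 0.866 CPM in ML libraries, and reached 52.5 CPM in Comma Dβ against 3.86 CPM in the mammosphere library. Both were higher in every MaSC/basal library than in any luminal library (log2 fold change against LP 2.58, SE 0.46, edgeR adjusted p = 0.000849 for *Adamts2* and 2.38, SE 0.54, adjusted p = 0.00369 for *Adamts14*). *Adamts3* (chr5:89673841-89883668) was the reverse, with 7.53, 9.33 and 12.3 CPM in MaSC/basal, 70.4, 43.7 and 64.5 CPM in LP and 43.9, 43.8 and 33.9 CPM in ML libraries, and 9.34 and 9.84 CPM in the mammosphere and Comma Dβ libraries. All 6 luminal libraries lay above the MaSC/basal libraries and the cultures (-2.61, SE 0.24, adjusted p = 9.72e-06 against LP, and -2.06, SE 0.23, adjusted p = 3.73e-05 against ML cells).

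*Adamts7* and *Adamts12*, which cut cartilage oligomeric matrix protein, had different places. *Adamts7* (chr9:90162904-90200102) was at 169, 153 and 139 CPM in MaSC/basal, 9.35, 7.73 and 6.36 CPM in LP and 5.94, 6.03 and 4.19 CPM in ML libraries, with 28.1 CPM in the mammosphere and 58.1 CPM in the Comma Dβ library. The sorted populations did not overlap, and the log2 fold change of 4.29 (SE 0.20, edgeR adjusted p = 2.26e-07) against LP and 4.82 (SE 0.21, adjusted p = 1.26e-07) against ML cells had the smallest adjusted p among members in both comparisons. Between LP and ML cells *Adamts7* did not pass (0.53, SE 0.18, adjusted p = 0.0529), but passed with batch as a block (0.53, adjusted p = 0.0113), with DESeq2 size factors (adjusted p = 0.0464), with the Wald test of DESeq2 (adjusted p = 0.0297) and without LP replicate 3 (0.66, adjusted p = 0.0332). *Adamts12* was at 10.2, 10.3 and 16.1 CPM in MaSC/basal, 19.3, 25.5 and 18.6 CPM in LP and 7.52, 10.4 and 4.6 CPM in ML libraries, with 27.1 CPM in the mammosphere and 10.0 CPM in the Comma Dβ library. LP libraries were above the other sorted libraries (1.48, SE 0.30, adjusted p = 0.00575 against ML cells), and the call for LP over MaSC/basal cells (-0.80, SE 0.30, adjusted p = 0.0411) was lost without TMM factors (-0.65, adjusted p = 0.0724) and without any 1 of MaSC/basal replicates 1 and 2, LP replicates 1, 2 and 3 and ML replicate 1 (values from -0.88 to -0.65).

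The remaining *Adamts* genes included members lower in ML cells than in the other sorted cells. *Adamts10*, linked to microfibrils, was at 45.6, 42.1 and 49.2 CPM in MaSC/basal, 57.0, 31.5 and 48.4 CPM in LP and 14.0, 13.2 and 13.1 CPM in ML libraries, with 6.54 CPM in the mammosphere and 36.7 CPM in the Comma Dβ library. *Adamts17* was at 31.4, 39.9 and 36.3 CPM in MaSC/basal, 41.8, 50.6 and 27.3 CPM in LP and 4.67, 19.5 and 3.96 CPM in ML libraries, and at 0.541 and 0.545 CPM in the mammosphere and Comma Dβ libraries. For both genes MaSC/basal and LP libraries overlapped and every ML library was lower than these, with log2 fold changes for LP over ML cells of 1.76 (SE 0.20, edgeR adjusted p = 0.0008) for *Adamts10* and 2.06 (SE 0.53, adjusted p = 0.0161) for *Adamts17*. ML replicate 2 was the highest ML library for *Adamts17*, and without it the log2 fold change was 3.20 between LP and ML cells and 3.05 in place of 1.91 between MaSC/basal and ML cells, while without ML replicate 1 the LP over ML call was lost (1.73, adjusted p = 0.0536).

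*Adamts13*, the protease of von Willebrand factor, was luminal at a low level, with means of 3.03 CPM for LP, 0.838 CPM for ML and 0.0881 CPM for MaSC/basal cells (log2 fold change MaSC/basal against LP -5.07, SE 0.53, edgeR adjusted p = 2.45e-05, and LP against ML 1.79, SE 0.43, adjusted p = 0.0118). Its substrate gene *Vwf* was at 91.0 to 107 CPM in ML, 10.3 to 30.7 CPM in LP and 14.5 to 46.3 CPM in MaSC/basal libraries. In the mammosphere library *Adamts13* was at 0.0451 CPM and in Comma Dβ it had no read, where 3 reads would be 0.102 CPM. *Adamts16* had means of 0.957 CPM for LP, 0.358 CPM for MaSC/basal and 0.250 CPM for ML cells, and its calls for LP over MaSC/basal cells (-1.43, adjusted p = 0.0338) and LP over ML cells (1.95, adjusted p = 0.0221) were lost without LP replicate 1 (-0.97, adjusted p = 0.143, and 1.5, adjusted p = 0.0769), and also without MaSC/basal replicate 1 or 2 in the former (-1.10 and -1.43) and ML replicate 2 or 3 in the latter (1.66 and 1.83). *Adamts6* was at 0.319 to 0.603 CPM in all sorted libraries, which overlapped, and at 7.82 and 23.6 CPM in the mammosphere and Comma Dβ libraries.

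Of the inhibitors, *Timp3* separated the lineages, *Timp2* differed little among sorted cells and *Timp1* separated the cultures from the sorted cells. *Timp3* (chr10:86300412-86349505) was at 464, 684 and 677 CPM in MaSC/basal, 43.3, 56.2 and 62.8 CPM in LP and 32.4, 38.0 and 64.1 CPM in ML libraries, with 447 CPM in the mammosphere and 759 CPM in the Comma Dβ library. MaSC/basal libraries and both cultures were above all luminal libraries, and LP and ML libraries overlapped. The log2 fold change was 3.49 (SE 0.30, edgeR adjusted p = 5.94e-06) against LP, 3.76 (SE 0.30, adjusted p = 3.45e-06) against ML and 0.27 (SE 0.27, adjusted p = 0.472) between LP and ML cells. *Timp3* lies within *Syn3* on the opposite strand and shares 1733 exon bases with it. *Syn3* itself was at 2.41 to 2.9 CPM in MaSC/basal, 8.76 to 13 CPM in LP and 3.90 to 6.37 CPM in ML libraries. The part of reads from the shared exon bases in either count was not tested.

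*Timp2* (chr11:118301061-118355411), which takes part in the activation of pro-MMP2 by MMP14, was at 299, 473 and 348 CPM in MaSC/basal, 342, 358 and 343 CPM in LP and 249.8, 298 and 242 CPM in ML libraries, with 342 CPM in the mammosphere and 752 CPM in the Comma Dβ library. The MaSC/basal and LP libraries overlapped, and ML libraries were the lowest by a narrow margin. The log2 fold change between MaSC/basal and ML cells was 0.50 (SE 0.18, edgeR adjusted p = 0.0363). This call was lost with batch as a block (0.41, adjusted p = 0.0657), without the filter (0.48, adjusted p = 0.0534), without MaSC/basal replicate 2 (0.32, adjusted p = 0.117) and without ML replicate 1 or 3 (0.46 and 0.44). Against LP cells the MaSC/basal difference was 0.10 (SE 0.18, adjusted p = 0.651) and that between LP and ML cells was 0.40 (SE 0.18, adjusted p = 0.12).

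*Timp1* (chrX:20870166-20874737), the soluble inhibitor that binds proMMP9, was at 17.2, 16.0 and 33.7 CPM in MaSC/basal, 13.5, 26.7 and 12.6 CPM in LP and 15.2, 27.2 and 15 CPM in ML libraries. It reached 264 CPM in the mammosphere library and 216 CPM in Comma Dβ. The sorted populations overlapped and both cultures were far above them. No pair of populations passed the test (log2 fold changes of 0.33, 0.21 and -0.12, SE 0.38 for each, edgeR adjusted p of 0.477, 0.65 and 0.841), and in each population 1 library was higher than the other two, namely MaSC/basal replicate 3, LP replicate 2 and ML replicate 2. *Timp4* was under 0.5 CPM in every library and was not tested.

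**Figure D4:**
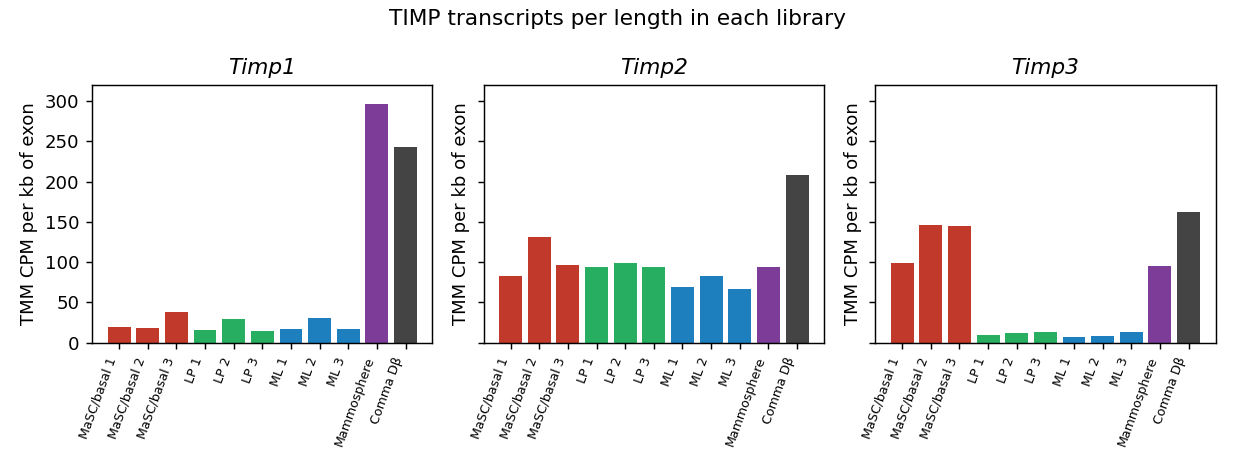
Level of *Timp1*, *Timp2* and *Timp3* per length in each of the 11 libraries, in TMM CPM per kilobase of exon (vertical axis, from 0), with 1 bar per library. *Timp1* reaches 296 in the mammosphere and 243 in the Comma Dβ library and at most 37.9 in a sorted library, *Timp2* lies between 66.9 and 208 in all libraries, and *Timp3* is at 99.2 to 146 in MaSC/basal and at most 13.7 in luminal libraries.

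Both cultured libraries were then set against the 3 freshly sorted MaSC/basal libraries, which they share as a reference, to ask which members mammosphere culture retained and how the line compared. The measure was the difference of log2 CPM from the MaSC/basal mean, and a member was counted when it was over 2-fold and outside the range of the 3 MaSC/basal libraries. No test was possible with 1 library. Comma Dβ shared its labelled batch with none of the MaSC/basal libraries, so batch cannot be told apart from its other differences. The mammosphere library shared its batch with MaSC/basal replicate 1 alone. In the mammosphere library 11 of the 34 members were higher (32.4%, against 19.6% of all genes) and 12 lower (35.3%, against 20%). In Comma Dβ 13 were higher (38.2%, against 16.9%) and 14 lower (41.2%, against 24.8%). Median differences were -0.18 and -0.13 over members and -0.01 and 0.02 over all genes, so that members moved in both directions. The filter counted the cultured libraries as well. *Mmp10*, *Mmp13* and *Adamts6* passed it in fewer than 3 sorted libraries and entered the 34 through the cultures, where they were high. Their place among the higher members was therefore set in part by the filter, and the shares above include them. Without the filter, over all 46 members, 18 were higher (18.6% of all genes) and 15 lower (17.9%) in the mammosphere library, and 16 were higher (15.5%) and 18 lower (22.7%) in Comma Dβ. With a limit of 4-fold, 8 of the 34 members were higher (8.26% of all genes) and 9 lower (8.35%) in the mammosphere library, and 8 were higher (5.1%) and 8 lower (14.6%) in Comma Dβ.

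Higher members in the mammosphere library were 7 *Mmp* genes, 3 *Adamts* genes and *Timp1*. The largest differences on the log2 scale were 9.07 for *Mmp13*, 8.18 for *Mmp10*, 7.25 for *Mmp9*, 6.50 for *Mmp3* and 4.2 for *Mmp19*, followed by 3.88 for *Adamts6*, 3.65 for *Timp1* and 3.17 for *Adamts15*. *Mmp16*, *Mmp11* and *Adamts12* were higher by 1.61, 1.29 and 1.19. *Mmp10* and *Mmp13* had at most 30 and 8 reads per library in MaSC/basal cells, so their differences depend on the prior count. Lower members were 9 *Adamts* and 3 *Mmp* genes, led by *Adamts18* (-8.41), *Adamts17* (-5.93) and *Adamts20* (-5.29), with *Adamts9* at -3.06, *Adamts10* at -2.79, *Adamts1* at -2.77, *Adamts8* at -2.46 and *Adamts7* at -2.44, and with *Mmp23* at -2.84, *Mmp2* at -1.29 and *Mmp17* at -1.04.

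Comma Dβ cells had some of these features and others of their own. *Mmp9* (5.02), *Mmp10* (4.82), *Mmp13* (3.53), *Mmp3* (3.14) and *Timp1* (3.36) were higher than in MaSC/basal cells, as were *Adamts6* (5.46), *Mmp16* (4.48), *Adamts14* (3.90), *Mmp11* (1.83), *Mmp19* (1.48), *Adamts16* (1.40), *Timp2* (1.04) and *Adamts5* (1.01). *Adamts18* (-9.18), *Adamts17* (-5.92), *Adamts20* (-5.22), *Mmp23* (-4.66), *Mmp17* (-4.39), *Mmp15* (-2.47) and *Mmp24* (-2.27) had the largest differences of the 14 lower members, followed by *Adamts9* (-2.19). *Adamts15* was 3.17 higher in the mammosphere library and 1.56 lower in Comma Dβ (-1.56), and *Adamts5* was 1.40 lower (-1.40) in the former and 1.01 higher in the latter. *Mmp14*, *Timp3*, *Adamts2* and *Adamts3* stayed within 2-fold of the MaSC/basal mean in both.

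**Figure D5:**
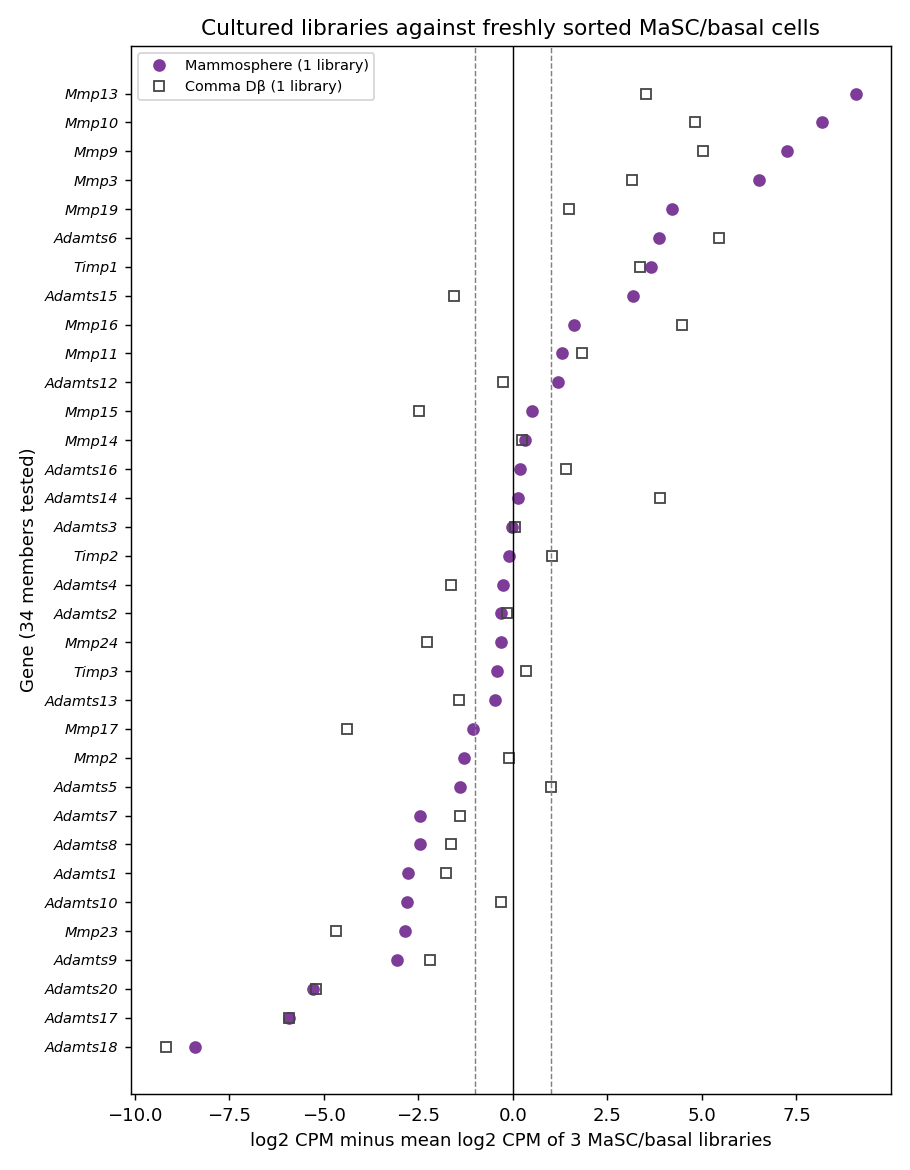
Difference of log2 CPM between each cultured library and the mean of the 3 MaSC/basal libraries (horizontal axis) for the 34 members tested (vertical axis), with filled circles for the mammosphere and open squares for the Comma Dβ library and dashed lines at 2-fold. *Mmp13* lies at 9.07 for mammospheres and 3.53 for Comma Dβ, and *Adamts18* lies below -8 for both.

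Markers of other cells differed in the cultures as well. The 10 fibroblast markers summed to 3112 CPM in the mammosphere and 3740 CPM in the Comma Dβ library, above all sorted libraries, with *Col1a1* at 838 and 809 CPM, whereas *Dcn* was at 98.6 and 91.5 CPM, below the 162 to 204 CPM of MaSC/basal cells. The 5 pericyte markers summed to 210 and 343 CPM, of which *Pdgfrb* gave 151 and 341 CPM and *Rgs5* 1.13 and 0.885 CPM. There were 6 macrophage markers, which summed to 40.8 CPM in the mammosphere library, against 8.12 to 26.8 CPM in sorted libraries, with *Cd68* at 23.6 CPM and *Adgre1* at 0.383 CPM, and *Ptprc*, carried by all leucocytes, was at 0.271 CPM. The 6 neutrophil and other leucocyte markers summed to 32.7 CPM there, of which *S100a8* gave 24.4 CPM, against 2.15 to 38.5 CPM in sorted libraries. *S100a9* and *Itgam* were at 6.31 and 1.58 CPM there and at most 0.102 and 0.848 CPM in a sorted library. The macrophage markers *Lyz2* and *Csf1r* were at 11.1 and 5.25 CPM, against at most 4.43 and 3.19 CPM. *Mrc1*, *Fcgr1*, *Cd3e* and *Cd79a* (0.271, 0.135, 0.0451 and 0.0676 CPM) were not above the highest sorted library. The muscle genes *Myog* and *Myod1* were at 12.4 and 3.52 CPM in the mammosphere library and at most 0.159 CPM in a sorted library. The part of such cells in the higher *Mmp* and *Timp1* levels was not tested.

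The genes that activate or restrain these proteases were examined for comparison. Of 23 activators and inhibitors, among them plasminogen activators, furin-type convertases, serpins and *Reck*, 22 were tested. Here 13 were higher in MaSC/basal and 4 in LP cells (29.4% and 28% of all genes tested), 15 in MaSC/basal and 3 in ML cells (28.9% and 29.7%), and 7 in LP and 1 in ML cells (14.3% and 17.5%). *Spock2* and *Sparc*, encoding matricellular proteins of the same family, differed most towards MaSC/basal cells against LP cells (log2 fold changes 5.37, SE 0.28, edgeR adjusted p = 4.46e-07, and 4.93, SE 0.50, adjusted p = 1.82e-05). *St14* (matriptase) and *Hpn* (hepsin), surface serine proteases, differed most towards LP cells (-2.56, SE 0.18, adjusted p = 1.81e-06, and -1.18, SE 0.14, adjusted p = 6.55e-05).

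Of 13 genes of the related *Adam* family, only some of which encode membrane-bound enzymes that shed surface proteins, 12 were tested. Of these, 4 were higher in MaSC/basal and 1 in LP cells, 5 in MaSC/basal and 4 in ML cells, and 1 in LP and 4 in ML cells. Of all genes tested, 29.4% and 28%, 28.9% and 29.7%, and 14.3% and 17.5% were called, in the same order. With so few genes, 4 of 12 is close to the 29.4% called higher in MaSC/basal than in LP cells. It is also close to the 29.7% called higher in ML than in MaSC/basal cells. The 4 of 12 higher in ML than in LP cells lie above 17.5%. The 1 of 12 higher in LP than in MaSC/basal cells lies below 28%. *Adam22* (3.52, SE 0.39, edgeR adjusted p = 3.36e-05) and *Adam12* (3.00, SE 0.66, adjusted p = 0.0031) had the largest fold changes towards MaSC/basal against LP cells, and *Adam10* (-0.74, SE 0.21, adjusted p = 0.0123) was the gene higher in LP than in MaSC/basal cells. *Adam10* stood at 609, 492 and 642 CPM in ML libraries, against 99.5 to 122 CPM in MaSC/basal and 133 to 233 CPM in LP libraries. Among 7 ADAMTS-like genes and papilin, which lack a protease domain, 2 were higher in MaSC/basal cells (*Adamtsl3*, 2.64, and *Adamtsl5*, 1.51) and 2 in LP cells (*Thsd4*, -4.32, and *Papln*, -2.55), with edgeR adjusted p of at most 0.00454. A count of 2 of 7 in each direction is close to the shares of all genes tested, 29.4% and 28%. Among the large proteoglycans that ADAMTS proteases cut, 2 of 4 were tested. *Vcan* (versican) was at 1475, 924 and 1387 CPM in MaSC/basal, 16.8, 54.6 and 19.9 CPM in LP and 7.27, 6.57 and 5.65 CPM in ML libraries, with 214 CPM in the mammosphere and 313 CPM in the Comma Dβ library. All MaSC/basal libraries lay above the others (log2 fold change 5.37, SE 0.47, edgeR adjusted p = 7.49e-06 against LP cells). *Acan* (aggrecan), the other gene tested, had means of 0.976 CPM for LP, 0.668 CPM for MaSC/basal and 0.447 CPM for ML cells and did not pass against LP cells (-0.64, SE 0.75, adjusted p = 0.486).

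Exons of further members overlap genes on the opposite strand, so that unstranded counts cannot separate their reads. Among them are *Mmp24* with *BC029722* (637 bases), *Adamts8* with *Gm29724* (489 bases), *Mmp28* with *1700020L24Rik* (466 bases), *Mmp11* with *Chchd10* (155 bases) and *Adamts7* with *Tbc1d2b* (122 bases).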

How the data were processed

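RNA-seq was analysed for 11 libraries. According to the labels and the methods of the study, RNA was converted to libraries with TruSeq RNA kits (a first version of the kit for batch 1 and v2 for batches 2 and 3 by the labels, v2 throughout by the methods), single-end reads were aligned to mm10 (GRCm38) with Rsubread and assigned to Entrez genes with featureCounts. The authors deposited 1 table per library with the raw count and exon length of each of 27179 genes, neither normalized nor filtered. The submitters' processing notes also name CASAVA 1.8.0, edgeR 3.6.2 and limma 3.20.5. Whether strand was used and how multi-mapping reads were handled is not given in the sources used here, so reads of near copies and of overlapping genes are uncertain.

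Symbols were taken from a RefSeq table by Entrez ID (25275 genes matched, 1904 did not). The members, marker lists, protease lists and the named-gene rule were chosen with earlier results of these data known. That rule gives every library for members past FDR 0.05 with an absolute log2 fold change over 1 and at least 5 CPM in some sample type, or over 50 CPM in some sample type, group means for others over 0.5 CPM, and up to 2 genes per direction of each protease list.

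Groups followed the labels, and no table held unused columns. Counts were fitted in R 4.3.3 with edgeR 4.0.16 (glmQLFit and glmQLFTest, TMM factors from 0.863 to 1.21, all 11 libraries, 1 mean per sample type), for genes over 0.5 CPM in at least 3 libraries. This filter used CPM without TMM factors and counted the cultured libraries. SE is the log2 fold change divided by the root of F. Levels per kilobase are TMM CPM over exon length. Cultured libraries used log2 CPM with a prior count of 2. Alternatives were DESeq2 size factors, no TMM factors, no filter, filterByExpr, limma voom (limma 3.58.1), the DESeq2 1.42.0 Wald test, the sorted libraries alone, the labelled batch as replicate block, a prior count of 0.5, a 4-fold limit, a 1 CPM cutoff of expression and leaving out each primary library. The pairing of the block comes from the batch in the labels: deviations from the population means correlated by 0.32, 0.313 and 0.526 within the 3 LP and ML pairs of a batch, and by -0.118 to 0.289 for MaSC/basal with LP or ML libraries of its batch.

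Within populations, libraries differed by chi-square values of 52.9 to 177 per gene, so none were duplicates. The methods of the study call the samples of a population independent but name no animals, so p-values measure the spread between these samples. On simulated counts of 14999 tested genes with 200 changed by a log2 of 3, all 200 were recovered for MaSC/basal against LP (10 false calls) and against ML (12 false calls), and none was called between LP and ML. The simulated counts had the same dispersion for every gene and no batch effect. They therefore do not cover smaller changes or the spread of these libraries. At 0.5 CPM a gene had 9.36 to 37.6 reads. This covers error of counting alone, as the libraries had no molecular identifiers and reads may stem from copies of 1 molecule.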

Additional observations from a re-analysis of the deposited data

How the results depend on the processing

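Of the 57 calls of members over the 3 comparisons, 44 passed under every alternative run, 13 were lost under at least 1 and 0 changed direction. The 13 are given with their values beside the results. Leaving out single primary libraries gave between 5 and 11 members higher in LP than in ML cells, with 5 without ML replicate 3. The share of all genes was not counted in those fits. With a limit of 4-fold, 8 members were higher (5.1% of all genes) and 8 lower (14.6%) in Comma Dβ in place of 13 and 14. Without the filter, which brings in 12 more members, 18 were higher in mammospheres (18.6% of all genes) in place of 11.

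When the batch was added as a replicate block, the calls of *Timp2* between MaSC/basal and ML cells and of *Mmp2* and *Mmp23* between LP and ML cells were lost and *Adamts7* was gained between LP and ML cells, among the members whose tests are reported. The difference of *Timp1* between MaSC/basal and ML cells, which was not called, became -0.037 (edgeR adjusted p = 0.916) under the block, and the 6 counts moved by at most 1. Other changes of sign were all in uncalled differences when a library was left out: *Timp2* MaSC/basal against LP ranged from -0.10 to 0.25, *Timp1* from -0.080 to 0.76 against LP and from -0.20 to 0.56 against ML, and from -0.54 to 0.22 between LP and ML cells. The causes were not tested. Depth limits members under 0.5 CPM, and the cultures have 1 library each.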
